A study of Drosophila melanogaster with 24 samples.

Results

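The comparison set 2 RNA-seq libraries with a high level of Adar against 3 libraries with a low level, 5 of the 24 libraries of a Drosophila melanogaster series on intestinal stem cells, ageing and RNA editing. Both groups come from the set in which ADAR with the E374A substitution was overexpressed. The high-Adar libraries are titled OE E374A WT1 and WT2, and the low-Adar libraries OE E374A sample1, sample2 and sample3. The deposited names of the files run opposite to these titles. In these 5 libraries the level of Adar goes with the file names and against the titles. The groups were therefore read by file name, and their orientation was chosen by the measured TPM of Adar. Every direction is high-Adar minus low-Adar. If the titles are right, the high-Adar libraries are the controls, and every direction turns when read as overexpression against control. By coverage, the low-Adar libraries are also those titled kd Zn72D WT1, WT2 and WT3. The titles thus name the same libraries both as E374A samples and as controls. The library titled WT3 belongs to the high-Adar group by its file name, but its Adar stood at only 31.5 TPM. It was left out, since its table holds loci assembled anew and its values stand apart. The labels name E374A for all 6 libraries and give no driver, age, sex or further allele for either group. The series title speaks of a midgut-specific overexpression, the extraction text of sorted stem cells, and the tissue label of the whole organism. Nothing says that replicates came from separate animals, so p-values measure the spread between these libraries, which may be technical.

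ADAR binds double-stranded RNA and deaminates adenosine to inosine, and in flies it is best known for recoding transcripts of neurons. E374A is a substitution of the catalytic glutamate that removes deaminase activity, so that the protein can still bind RNA. Edited RNA is known to escape sensors of double-stranded RNA in other animals. The fly midgut is an epithelium of absorptive enterocytes, hormone-secreting enteroendocrine cells and dividing stem cells, wrapped in visceral muscle. In front of it lie the foregut and crop, which are lined with cuticle, and the proventriculus, where the mucin- and chitin-rich peritrophic matrix is made. Behind it join the Malpighian tubules, the kidney of the fly.

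Expression is given in TPM, a transcript abundance scaled to a total of 1000000, which corrects for gene length. A depth of 5.99 and 5.91 gigabases of aligned sequence was estimated for the high-Adar libraries, and of 6.74, 5.99 and 5.61 gigabases for the low-Adar ones. Across 8361 genes the Spearman correlation was 0.957 between the high-Adar libraries, 0.979 to 0.985 among the low-Adar libraries and 0.912 to 0.944 between the groups. The library titled WT3 correlated at 0.474 to 0.533 with the other E374A and the kd Zn72D libraries. Few markers of the head, ovary and testis reached the mean of 1 TPM at which genes were tested. They were 3 of 18 for the eye and head, ninaD, santa-maria and norpA, and 1 each of 24 for the ovary and 67 for the testis. The photoreceptor opsin ninaE had 0.0318 and 0.144 TPM in the high-Adar libraries and 0.323, 0.234 and 0.240 TPM in the low-Adar libraries. Digestive serine proteases made up 251900 and 162600 TPM in the high-Adar libraries and 240900, 246400 and 280400 TPM in the low-Adar libraries. The stem cell factor gene esg had 10.1 and 20.6 TPM in the high-Adar libraries, against 19.1, 22.6 and 18.1 TPM in the low-Adar libraries, and 323 TPM in the library titled WT3. These levels go with neither the label of whole organism nor the text on sorted stem cells.

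Libraries of a Zn72D knockdown, titled kd Zn72D sample1 to 3, are set beside the groups as values only. Zn72D is a zinc-finger RNA-binding protein known to influence editing by ADAR. Each low-Adar library is also the kd Zn72D control library of the same number, since 84.3% to 84.8% of genes had coverage within 0.1% of each other in such a pair. Other pairings matched at 0.384% of genes or fewer. The comparison of the Zn72D knockdown with its controls shares these libraries, so no overlap between its calls and those given here is reported.

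Adar (FBgn0026086, dm6 chromosome X, 1773725 to 1788065) had 879 and 801 TPM in the high-Adar libraries and 17.2, 14.55 and 15.8 TPM in the low-Adar libraries. The means were 840.1 ± 54.7 TPM (SD, n = 2) and 15.9 ± 1.34 TPM (SD, n = 3), a ratio of 53. It ranked 176 and 200 of all genes by TPM in the high-Adar libraries, against 3956, 4259 and 3906 in the low-Adar libraries. The kd Zn72D libraries had 6.10, 9.74 and 13.3 TPM, and the left-out library WT3 had 31.5 TPM. These values oriented the groups, so they are a description and carry no test. The deposited tables do not separate transcripts of an endogenous from an introduced Adar. The gene prage, a predicted exonuclease gene whose annotated span (1773719 to 1853667) holds that of Adar on the same strand, had 10.1 and 16.9 TPM in the high-Adar libraries and 6.29, 5.94 and 4.61 TPM in the low-Adar libraries (adjusted p = 0.0867). Reads of 2 genes that overlap on 1 strand may not be told apart.

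**Figure D1:**
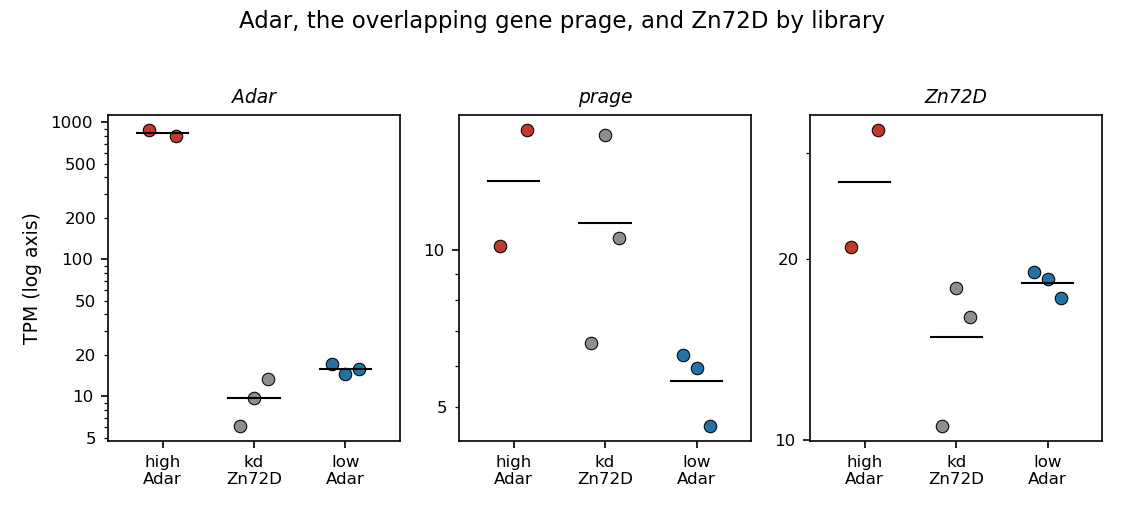
TPM of Adar, of the overlapping gene prage and of Zn72D on log axes, with 1 point per library and a bar at the mean of each group, for the 2 high-Adar, 3 kd Zn72D and 3 low-Adar libraries. The high-Adar libraries sit at 879 and 801 TPM of Adar, and every other library plotted lies at or below 17.2 TPM.

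Over all genes the high-Adar libraries differed by many genes that fell far and by fewer that rose. Of 8536 genes with a mean of at least 1 TPM, 330 were called (3.87%) at an adjusted p under 0.05 by limma on log2(TPM + 1). Among these, 102 rose in the high-Adar libraries (1.19%), Adar being one, and 228 fell (2.67%). A log2 fold change of at least 2 in size was found for 35 of the genes that rose and 108 of those that fell. All 330 had groups that did not overlap, which was also true of 24.2% of all tested genes on the higher side and 12.2% on the lower side. The median log2 fold change of all tested genes was 0.15, and it moved to 0 with median-ratio scaling. Medians of gene lists are therefore given relative to it. Leaving out each library in turn kept the call of 160 genes in all 5 fits, 38 that rose and 122 that fell. Without the high-Adar library WT1 the counts were 2319 higher and 457 lower, and without WT2 they were 125 and 629. With the library titled WT3 added they were 3 and 25. In bulk RNA, fewer cells of a type and less RNA per cell cannot be told apart.

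**Figure D2:**
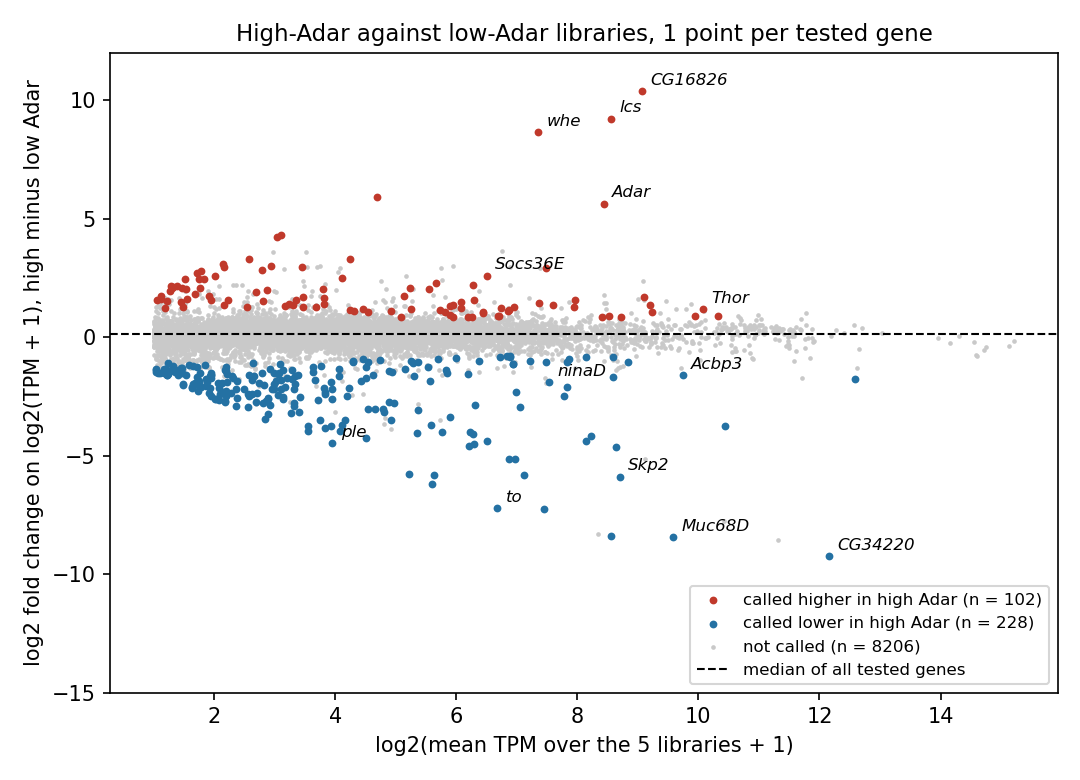
Log2 fold change of high-Adar minus low-Adar libraries on log2(TPM + 1) against the log2 of the mean TPM of the 5 libraries plus 1, with 1 point per tested gene, 102 called higher, 228 called lower and the rest not called. The dashed line is the median of all tested genes at 0.15. For CG16826 and whe, listed at 0 in every low-Adar library, the plotted height depends on the pseudocount.

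The JAK-STAT pathway carries injury and infection signals in the fly gut: cytokines of the Unpaired family, released by stressed cells, bind the receptor Domeless, and the kinase Hopscotch then activates the transcription factor Stat92E. Of 11 tested members of the pathway list, 3 rose and none fell, where 1.19% of all tested genes rose. At an unadjusted p under 0.05 by limma, 5 were higher and none lower, where 868 of all 8536 genes were higher. The list median was 0.31 above that of all genes. The cytokine gene upd2 had 2.14 and 8.87 TPM in the high-Adar libraries and 0.492, 0.204 and 0.260 TPM in the low-Adar libraries. Its log2 fold change was 2.08 ± 0.45 (SE, adjusted p = 0.0478 by limma), on a low level. The cytokine gene upd3 had 6.23 and 19.0 TPM in the high-Adar libraries and 2.81, 1.64 and 1.75 TPM in the low-Adar libraries (log2 fold change 1.99 ± 0.43, adjusted p = 0.0396 by limma). For both cytokines WT2 was higher than WT1, and the groups did not overlap. Without the high-Adar library WT2, upd2 no longer had a mean of at least 1 TPM and was not tested. Both calls were lost without low-Adar sample1 (adjusted p = 0.11 for upd2 and 0.0669 for upd3) and without low-Adar sample3 (0.121 and 0.0939).

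Socs36E, the feedback inhibitor that Stat92E induces, rose the most of this list. It had 193 and 166 TPM in the high-Adar libraries and 36.1, 18.5 and 34.7 TPM in the low-Adar libraries, with a log2 fold change of 2.61 ± 0.29 (adjusted p = 0.00134 by limma). It was called in all 5 fits without 1 library. The receptor gene dome had 27.3 and 52.2 TPM in the high-Adar libraries and 24.4, 18.1 and 21.2 TPM in the low-Adar libraries, without a call (adjusted p = 0.193). The genes hop and Stat92E, for kinase and transcription factor, had overlapping groups. In the kd Zn72D libraries Socs36E had 29.9, 161 and 93.4 TPM, and upd3 had 3.26, 9.30 and 5.79 TPM. For Socs36E, sample1 lay within the range of the low-Adar libraries, and sample2 and sample3 lay between the groups. For upd3, sample1 and sample3 lay between the groups, and sample2 lay within the range of the high-Adar libraries.

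Outside that pathway the regulator genes Ets21C, kay and Thor were called higher, while most genes of the stress lists were not called. Ets21C, an ETS transcription factor known as a target of JNK signalling in the gut, had 27.2 and 39.1 TPM in the high-Adar libraries and 5.12, 4.66 and 4.99 TPM in the low-Adar libraries. Its log2 fold change was 2.50 ± 0.25 (adjusted p = 0.000644 by limma), and each high-Adar value was above every low-Adar value. The gene kay, for the Fos subunit of the AP-1 factor, had 204 and 143 TPM in the high-Adar libraries and 93.5, 69.6 and 68.0 TPM in the low-Adar libraries (log2 fold change 1.15 ± 0.23, adjusted p = 0.0258). Its call was lost without low-Adar sample3 (adjusted p = 0.0806) and with median-ratio scaling (adjusted p = 0.116). The JNK phosphatase gene puc, another known target of the pathway, had 79.6 and 60.8 TPM in the high-Adar libraries and 49.0, 47.8 and 51.4 TPM in the low-Adar libraries, without a call.

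Thor, the translation repressor 4E-BP that FOXO and ATF4 induce under stress, was the most abundant gene of this group. It had 1986 and 1316 TPM in the high-Adar libraries and 717, 671 and 719 TPM in the low-Adar libraries (log2 fold change 1.20 ± 0.21, adjusted p = 0.0125 by limma), and lost its call with median-ratio scaling (adjusted p = 0.124). It was the single called gene of 18 tested in the insulin and TOR list and of 17 tested in the list of unfolded protein and amino acid stress. The kd Zn72D libraries had 578, 1920 and 1334 TPM of Thor. In the apoptosis list 1 gene of 15 rose and 1 fell, where 1.19% and 2.67% of all tested genes did. The initiator caspase gene Dronc had 26.9 and 29.1 TPM in the high-Adar libraries and 15.9, 12.5 and 9.74 TPM in the low-Adar libraries. The TNF ligand gene egr, which acts upstream of JNK, had 9.72 and 13.0 TPM in the high-Adar libraries and 22.2, 25.1 and 23.3 TPM in the low-Adar libraries. Both calls were close to the threshold (adjusted p = 0.0467 for Dronc and 0.0432 for egr). Dronc kept its call in 1 of the 5 fits without 1 library, with adjusted p of 0.0232 to 0.234, and egr in 2, with 0.00658 to 0.209.

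**Figure D3:**
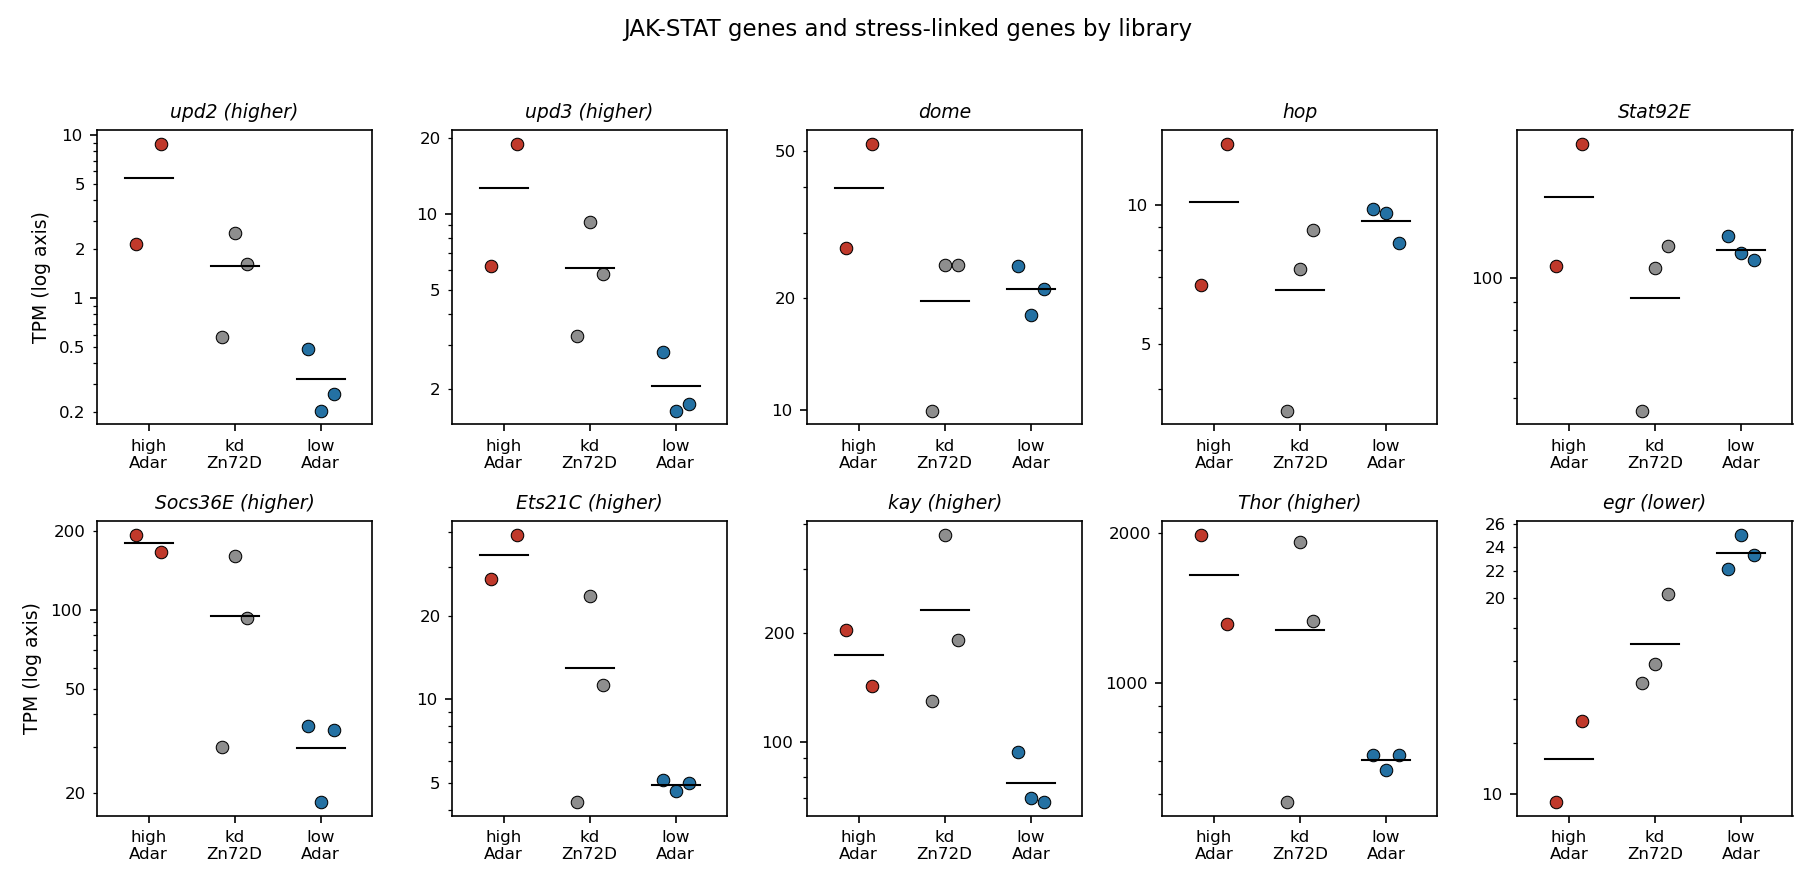
TPM of 5 JAK-STAT genes, the feedback inhibitor Socs36E and 4 stress-linked genes on log axes, with 1 point per library and a bar at the group mean, for the 2 high-Adar, 3 kd Zn72D and 3 low-Adar libraries. Called genes carry their direction in the panel title. For Socs36E the high-Adar libraries sit at 193 and 166 TPM, above all low-Adar libraries, and kd Zn72D sample2 reaches 161 TPM.

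A small set of genes was present in the high-Adar libraries and absent, or nearly so, from the low-Adar libraries. Among called genes, 10 had at least 5 TPM in both high-Adar libraries and under 1 TPM in all low-Adar libraries, and 19 met the same rule the other way round. The strongest were CG16826 (chromosome 2L, 13347773 to 13349020) at 1221 and 1472 TPM and whe (chromosome X, 21402339 to 21402772) at 342 and 469 TPM in the high-Adar libraries, both listed at 0 in all low-Adar libraries. No fold is given against a group listed at 0, as the 38 genes of the mitochondrial genome are also listed at 0 in every library. The gene lcs lies close to whe (chromosome X, 21396727 to 21397316), and had 751 and 1129 TPM in the high-Adar libraries and 0.634, 0.367 and 0.612 TPM in the low-Adar libraries (log2 fold change 9.23 ± 0.25, adjusted p = 1.63e-07 by limma). The kd Zn72D libraries held these transcripts too: CG16826 had 493, 599 and 399 TPM, lcs 410, 223 and 198 TPM and whe 367, 172 and 264 TPM. The left-out library WT3 held 229 TPM of CG16826, 75.1 TPM of lcs and 4.27 TPM of whe. The unnamed genes CG33109, CG45080 and CG13947 were likewise present, at 57.7 and 65.7 TPM, 17.3 and 18.9 TPM, and 15.2 and 22.9 TPM in the high-Adar libraries, with at most 0.12 TPM in any low-Adar library. The CG genes were named after their values were seen.

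Among digestive and secreted proteins the genes that rose were few. Ser6, a serine protease gene, had 408 and 415 TPM in the high-Adar libraries and 172, 124 and 125 TPM in the low-Adar libraries (log2 fold change 1.56 ± 0.20, adjusted p = 0.00234 by limma). It was the only called gene of the 30 tested in the list of digestive serine proteases, whose median was 0.40 below that of all genes. The list does not hold every protease gene. CG1304, a serine protease gene outside it, was called higher (adjusted p = 0.000109 by limma) and was picked after its values were seen. It lies close to Ser6 on chromosome X (20964527 to 20965419, and 20962605 to 20963505 for Ser6). Calls in either direction among other protease genes outside the list were not counted. The lysozyme gene LysP had 28.7 and 52.3 TPM in the high-Adar libraries and 3.33, 3.33 and 2.55 TPM in the low-Adar libraries (log2 fold change 3.30 ± 0.30, adjusted p = 0.000368), the single call among 7 lysozymes. The maltase gene Mal-B1 had 4.67 and 19.7 TPM in the high-Adar libraries and at most 0.17 TPM in the low-Adar libraries (adjusted p = 0.0136), the single call among 20 amylases, maltases and mannosidases. The carboxylesterase gene Est-6 and the chitin deacetylase gene Cda4 also rose, to 5.31 and 11.6 TPM and to 4.17 and 12.9 TPM in the high-Adar libraries, against at most 0.209 and 0.0169 TPM in any low-Adar library. LysP, Est-6 and Mal-B1 overlap other genes in the annotation, as do 144 of the 330 called and 4476 of the 8536 tested genes, among them Socs36E, Ets21C, kay, Cht8, Ddc and wat. The strand setting of the counting is not given, so the source of their reads is uncertain.

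Genes of the mucous and chitin lining were among those that fell most. Mucins are heavily glycosylated gel-forming proteins, and chitin with its binding proteins builds the peritrophic matrix that separates food from the epithelium. Of 12 tested genes in the list of mucins and peritrophic matrix proteins, 3 fell and none rose, where 2.67% of all tested genes fell. By an unadjusted p under 0.05 (limma), 4 were lower and 2 higher, where 618 and 868 of all 8536 genes were. The groups did not overlap for 4 on the lower and 2 on the higher side, where 12.2% and 24.2% of all genes had such groups. The list median was 1.21 below that of all genes. Muc68D (chromosome 3L, 11767299 to 11772157) had 0.292 and 9.07 TPM in the high-Adar libraries and 909, 1356 and 1570 TPM in the low-Adar libraries, a log2 fold change of −8.43 ± 1.03 (adjusted p = 0.0436 by limma). The high-Adar libraries differ by a large factor from each other, though both lie far under every low-Adar library. Its call was lost without any 1 of the low-Adar libraries (adjusted p = 0.181, 0.299 and 0.326 without sample1, sample2 and sample3), at log2 fold changes of −8.66 to −8.27. Mur18B, a mucin-related gene, had 18.3 and 31.8 TPM in the high-Adar libraries and 276, 218 and 118 TPM in the low-Adar libraries (log2 fold change −2.94 ± 0.41, adjusted p = 0.0141). Its call was lost without high-Adar WT2 (adjusted p = 0.0508). Peritrophin-A, named for a chitin-binding protein of the matrix, had 0.104 and 0 TPM in the high-Adar libraries and 2.04, 1.72 and 2.87 TPM in the low-Adar libraries. Without low-Adar sample3 it fell under the mean of 1 TPM and was not tested.

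Pgant4 and 3 genes of the chitinase family fell as well. Pgant4, which starts the sugar chains of mucins, had 0.0874 and 0.927 TPM in the high-Adar libraries and 61.6, 90.8 and 90.8 TPM in the low-Adar libraries (log2 fold change −5.80 ± 0.31, adjusted p = 1.15e-05 by limma). The chitinase gene Cht8 had 1.72 and 5.01 TPM in the high-Adar libraries and 178, 255 and 250 TPM in the low-Adar libraries (log2 fold change −5.80 ± 0.35, adjusted p = 0.000105). Cht8 and Pgant4 were called in all 5 fits without 1 library. Cht5, a chitinase of moulting cuticle, fell from a lower level, to 0.186 and 0.156 TPM in the high-Adar libraries against 2.53, 5.16 and 3.06 TPM in the low-Adar libraries. Of 12 tested chitinases and imaginal disc growth factors, a family grouped after its values were seen, 3 fell and none rose. Among all tested genes the share that fell was 2.67%. The median log2 fold change of the 12 was 0.21, against 0.15 for all genes. The third gene that fell was Idgf4, whose call was lost without low-Adar sample1 (adjusted p = 0.0949) and sample3 (0.0794).

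The takeout family encodes secreted carriers of small lipophilic molecules, some of which bind juvenile hormone, and takeout itself is a clock-controlled gene linked to feeding. The gene to had 0 and 0.294 TPM in the high-Adar libraries and 164, 149 and 195 TPM in the low-Adar libraries (log2 fold change −7.22 ± 0.23, adjusted p = 3.04e-07 by limma). It had 127, 140 and 172 TPM in the kd Zn72D libraries. Jhbp1 had 0 and 0.12 TPM in the high-Adar libraries and 61.6, 76.6 and 98.1 TPM in the low-Adar libraries (log2 fold change −6.21 ± 0.26, adjusted p = 2.53e-06). Jhbp13 and Jhbp12 fell too, to at most 0.0528 TPM in either high-Adar library against 8.56 to 13.0 TPM and 4.27 to 6.75 TPM in the low-Adar libraries. In this family, grouped after its values were seen, 4 of 8 tested genes fell and none rose, where 2.67% of all tested genes fell.

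Genes of dopamine synthesis were among those that fell, 3 of 4 tested in a family grouped after its values were seen. Among all tested genes the share that fell was 2.67%. Tyrosine hydroxylase (ple), dopa decarboxylase (Ddc) and GTP cyclohydrolase (Pu), which makes the cofactor of the hydroxylase, supply dopamine for neurons and for cuticle tanning. The gene ple had 0.165 and 0.0696 TPM in the high-Adar libraries and 18.1, 22.7 and 31.55 TPM in the low-Adar libraries (log2 fold change −4.46 ± 0.30, adjusted p = 5.95e-05 by limma). Ddc had 0.0696 and 0.276 TPM in the high-Adar libraries and 6.78, 8.30 and 8.91 TPM in the low-Adar libraries, and Pu 0.127 and 0.336 TPM and 3.42, 4.95 and 5.24 TPM. The fatty acyl reductase gene wat had 3.61 and 5.28 TPM in the high-Adar libraries and 72.8, 87.5 and 99.0 TPM in the low-Adar libraries (log2 fold change −4.01 ± 0.23, adjusted p = 2.37e-05). The ABC transporter genes snu and osy, which are known for the lipid barrier of the cuticle, fell to 3.58 and 3.73 TPM and to 1.13 and 0.393 TPM in the high-Adar libraries, against 11.2 to 17.2 TPM and 6.91 to 9.58 TPM in the low-Adar libraries. The call of snu was lost without low-Adar sample1 (adjusted p = 0.0529) and sample3 (0.0717). Both transporters were picked after their values were seen. In the trachea and cuticle list 3 of 8 tested genes fell, where 2.67% of all tested genes fell. The groups did not overlap for 3 on the lower and 3 on the higher side. Of all tested genes, 12.2% and 24.2% had such groups. The list members that fell were the cuticle protein genes Cpr67B and Cpr51A and the gap junction gene ogre, which is no cuticle protein. The call of Cpr67B was lost without low-Adar sample1 (adjusted p = 0.052) and that of Cpr51A without sample3 (0.0618).

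Of developmental transcription factors, the 4 called genes ara, caup, retn and tup were picked after their values were seen. The Iroquois genes ara and caup, adjacent homeobox genes, had 0.314 and 1.04 TPM and 0.468 and 1.39 TPM in the high-Adar libraries, against 6.22, 7.98 and 8.86 TPM and 7.19, 8.69 and 9.91 TPM in the low-Adar libraries (adjusted p = 0.00198 and 0.00238 by limma). The third Iroquois gene, mirr, had 0.76 and 1.70 TPM in the high-Adar libraries and 2.83, 3.11 and 3.47 TPM in the low-Adar libraries, without a call (adjusted p = 0.137). The factor genes retn and tup fell to at most 0.366 and 0.0519 TPM in the high-Adar libraries, against at least 4.32 and 2.62 TPM in the low-Adar libraries. None of 21 tested genes in the list of gut transcription factors was called by limma, with 6 at an unadjusted p under 0.05, 2 higher and 4 lower. The groups did not overlap for 8 on the lower side, where 12.2% of all genes had such groups. With median-ratio scaling 4 of the 21 were called lower.

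**Figure D4:**
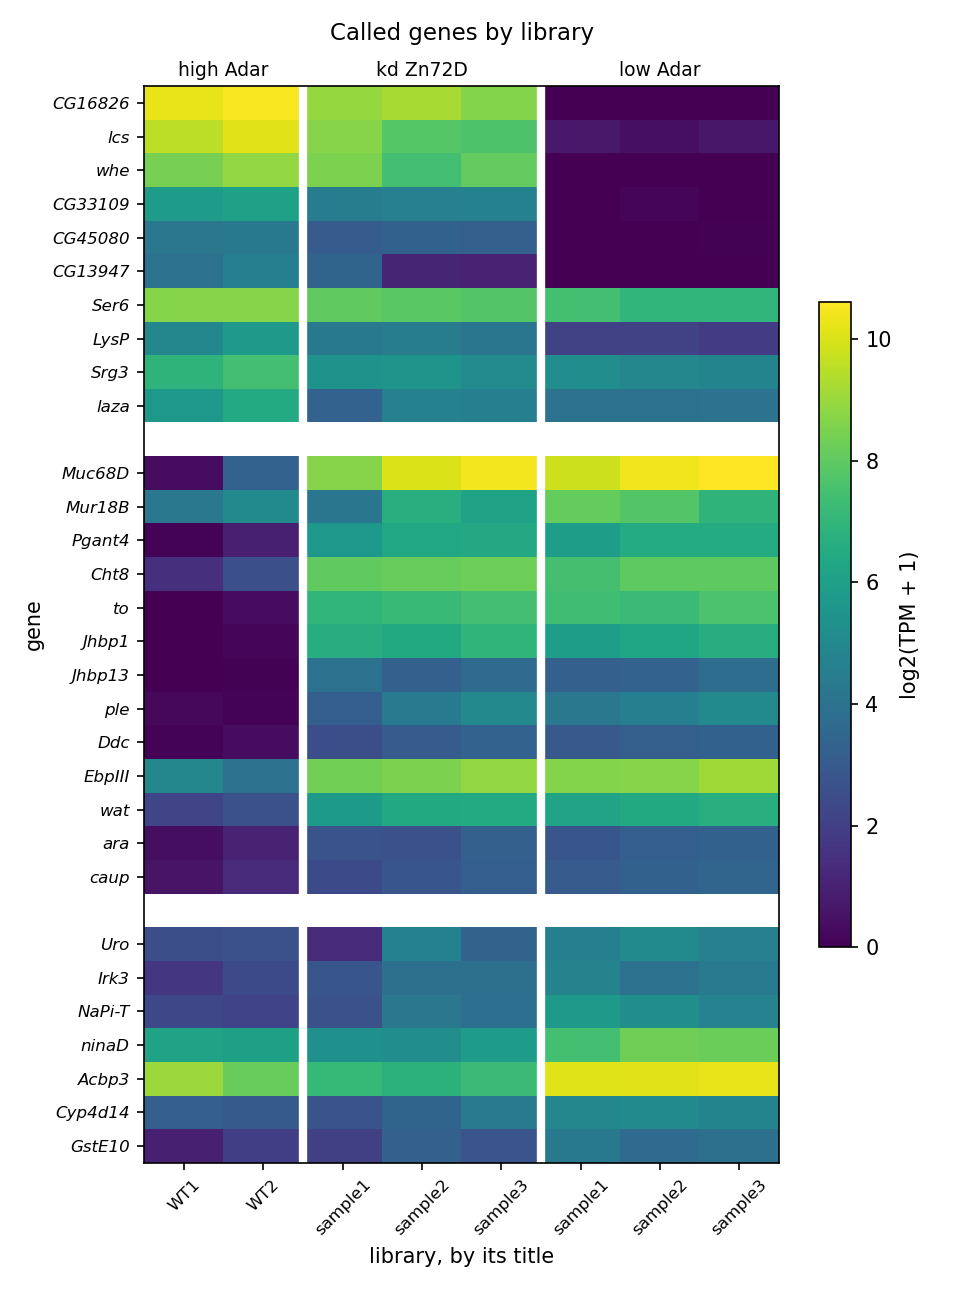
Heat map of log2(TPM + 1) for 10 genes called higher (top block) and 20 called lower (lower 2 blocks) in the high-Adar libraries, with 1 column per library. The gene to, for example, has 0 and 0.294 TPM in the high-Adar libraries, 127 to 172 TPM in the kd Zn72D libraries and 149 to 195 TPM in the low-Adar libraries, while Acbp3 is lowest in the kd Zn72D libraries at 113 to 151 TPM.

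Some of the most abundant genes that fell have no assigned name. CG34220 had 2.90 and 38.1 TPM in the high-Adar libraries and 5503, 7539 and 9862 TPM in the low-Adar libraries (adjusted p = 0.0473 by limma). Its call, like that of Muc68D, was lost without any 1 low-Adar library (adjusted p = 0.219, 0.306 and 0.36 without sample1, sample2 and sample3). CG43673 had 0.13 and 1.89 TPM in the high-Adar libraries and 429, 644 and 798 TPM in the low-Adar libraries, and kept its call in all 5 fits. The genes CG34324 and CG3906 had 1.22 and 52.1 TPM and 1.27 and 47.1 TPM in the high-Adar libraries against at least 2888 and 1815 TPM in the low-Adar libraries, and missed the threshold (adjusted p = 0.112 and 0.123). EbpIII, a secreted protein gene, had 28.9 and 14.9 TPM in the high-Adar libraries and 405, 410 and 545 TPM in the low-Adar libraries (log2 fold change −4.37 ± 0.28, adjusted p = 6.35e-05). Skp2, an F-box protein gene, had 6.02 and 17.7 TPM in the high-Adar libraries and 555, 768 and 726 TPM in the low-Adar libraries, but overlaps another gene, so the source of its reads is uncertain.

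Malpighian tubule markers were also among the genes that fell. Of 12 tested tubule markers, 3 fell and none rose, where 2.67% of all tested genes fell. The list median was 0.74 below that of all genes. Summed over the list, TPM came to 195 and 265 in the high-Adar libraries and 348, 325 and 370.1 in the low-Adar libraries. The urate oxidase gene Uro, a defining marker of the tubule, had 4.85 and 5.28 TPM in the high-Adar libraries and 23.1, 32.2 and 23.4 TPM in the low-Adar libraries (log2 fold change −2.15 ± 0.24, adjusted p = 0.00122 by limma). The potassium channel gene Irk3 had 2.17 and 4.26 TPM in the high-Adar libraries and 26.1, 14.9 and 19.0 TPM in the low-Adar libraries (adjusted p = 0.00352). Best2, a bestrophin channel gene, was the other. NaPi-T, a phosphate transporter gene, had 3.94 and 3.38 TPM in the high-Adar libraries and 50.9, 37.5 and 25.3 TPM in the low-Adar libraries. That gene is not in the tubule list and was picked after its values were seen. How much tubule tissue each library held was not tested.

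The genes ninaD and Acbp3 fell by less. The scavenger receptor gene ninaD, a member of the eye and head list that also takes up carotenoids in the gut, had 68.6 and 65.3 TPM in the high-Adar libraries and 174, 313 and 298 TPM in the low-Adar libraries (log2 fold change −1.90 ± 0.26, adjusted p = 0.00349 by limma). The acyl-CoA-binding protein gene Acbp3 had 518 and 281 TPM in the high-Adar libraries and 1096, 1139 and 1240 TPM in the low-Adar libraries (log2 fold change −1.60 ± 0.25, adjusted p = 0.00761). With median-ratio scaling Acbp3 lost its call (adjusted p = 0.0576). In the list of lipases and lipid handling 2 of 18 tested genes fell, where 2.67% of all tested genes fell. These were Acbp3 and the desaturase gene Desat1, and no gene of the list was called with median-ratio scaling. The kd Zn72D libraries were lower than both groups, at 39.4, 37.3 and 56.9 TPM of ninaD and 139, 113 and 151 TPM of Acbp3. CG18180, the most abundant of the called genes that fell, had 3275 and 1871 TPM in the high-Adar libraries and 7339, 9884 and 8388 TPM in the low-Adar libraries (adjusted p = 0.00443).

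Cytochrome P450 enzymes oxidise foreign and internal lipids, and 4 of 61 tested P450 genes fell while none rose, where 2.67% of all genes fell. At an unadjusted p under 0.05, 10 P450 genes were higher and 8 lower, where 868 and 618 of all 8536 tested genes were. The groups did not overlap for 18 P450 genes on the higher and 9 on the lower side. Of all tested genes, 24.2% and 12.2% had such groups. Cyp4aa1 had 0.42 and 0.473 TPM in the high-Adar libraries and 6.90, 8.34 and 11.1 TPM in the low-Adar libraries (adjusted p = 0.000722 by limma). Cyp4d14 had 7.94 and 6.98 TPM in the high-Adar libraries and 28.1, 33.1 and 26.7 TPM in the low-Adar libraries (adjusted p = 0.00168). The median of the P450 list was nonetheless 0.15 above that of all genes. Of 28 tested glutathione S-transferases, GstE10 fell and GstE1 rose, and the list median was 0.41 above that of all genes. The call of GstE1 was lost without low-Adar sample1 (adjusted p = 0.0735) and sample3 (0.0985). Of 28 tested UDP-glycosyltransferases only Ugt35B1 was called. It fell to 1.43 and 2.24 TPM in the high-Adar libraries against 12.7, 7.77 and 10.5 TPM in the low-Adar libraries.

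The known partners and targets of editing held no call besides Adar. None of the 8 other tested genes for editing and its regulators was called by limma, and none had an unadjusted p under 0.05. Zn72D itself had 20.9 and 32.8 TPM in the high-Adar libraries and 19.0, 18.5 and 17.3 TPM in the low-Adar libraries (adjusted p = 0.328 by limma). Of 19 neuronal transcripts known to be edited, 8 were tested and none was called, with 1 at an unadjusted p under 0.05. With median-ratio scaling 1 of the 8 was called lower. An example is the potassium channel gene slo at 12.4 and 13.9 TPM in the high-Adar libraries and 23.2, 20.9 and 20.25 TPM in the low-Adar libraries (adjusted p = 0.15). These tables hold levels and not edited bases, so editing was not analysed here.

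Sensors of double-stranded RNA and the RNA interference machinery showed 1 called gene of 12, where 3.87% of all tested genes were called. Srg3, named as a gene regulated by Sting, had 119 and 171 TPM in the high-Adar libraries and 35.9, 29.05 and 26.3 TPM in the low-Adar libraries (log2 fold change 2.21 ± 0.23, adjusted p = 0.000722 by limma). It was called in all 5 fits without 1 library. Srg2 had 306 and 878 TPM in the high-Adar libraries and 266, 171 and 156 TPM in the low-Adar libraries, and Nazo 323 and 299.9 TPM and 218, 69.8 and 150.5 TPM, both known to respond to Sting and neither called. Sting had 28.8 and 37.6 TPM in the high-Adar libraries and 31.9, 28.4 and 30.1 TPM in the low-Adar libraries. Dcr-2 and AGO2, the dicer and argonaute of the antiviral pathway, were not called either. In the kd Zn72D libraries Srg3 had 41.0, 44.3 and 34.0 TPM.

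Antimicrobial peptides and ribosomal proteins carried no call, with different patterns. Of the 35 antimicrobial peptide genes, 5 were tested and none was called by limma, with 1 at an unadjusted p under 0.05. They had sums of 18.6 and 158 TPM in the high-Adar libraries and 27.3, 20.7 and 16.7 TPM in the low-Adar libraries. AttC reached 62.2 TPM in WT2 alone, and had 0.0595 TPM in WT1. None of 22 tested genes for peptidoglycan recognition and the IMD pathway was called, with 3 at an unadjusted p under 0.05. None of 81 tested cytoplasmic ribosomal protein genes was called by limma, with 29 at an unadjusted p under 0.05, all higher. In 66 of them the groups did not overlap on the higher side, where 24.2% of all tested genes had such groups. Their list median was 0.20 above that of all genes, and they summed to 172300 and 184700 TPM in the high-Adar libraries and 155100, 140900 and 128300 TPM in the low-Adar libraries. Proteasome subunits had 24 of 33 genes on the higher side without overlap, also with no call and with 7 at an unadjusted p under 0.05.

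Cell type lists of the gut epithelium and its muscle held few calls. Of 15 tested stem cell and enteroblast genes only the cytokine upd3 was called, and it is also made by enterocytes. No gene was called by limma among 21 enteroendocrine, 20 muscle, 19 septate junction and enterocyte, 27 cell cycle and 21 heat shock genes tested. At an unadjusted p under 0.05 these lists had 2, 3, 5, 5 and 4 genes, where 1486 of all 8536 genes did. Of the 48 gene lists, 47 had a tested member and 23 of these had no called gene.

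**Figure D5:**
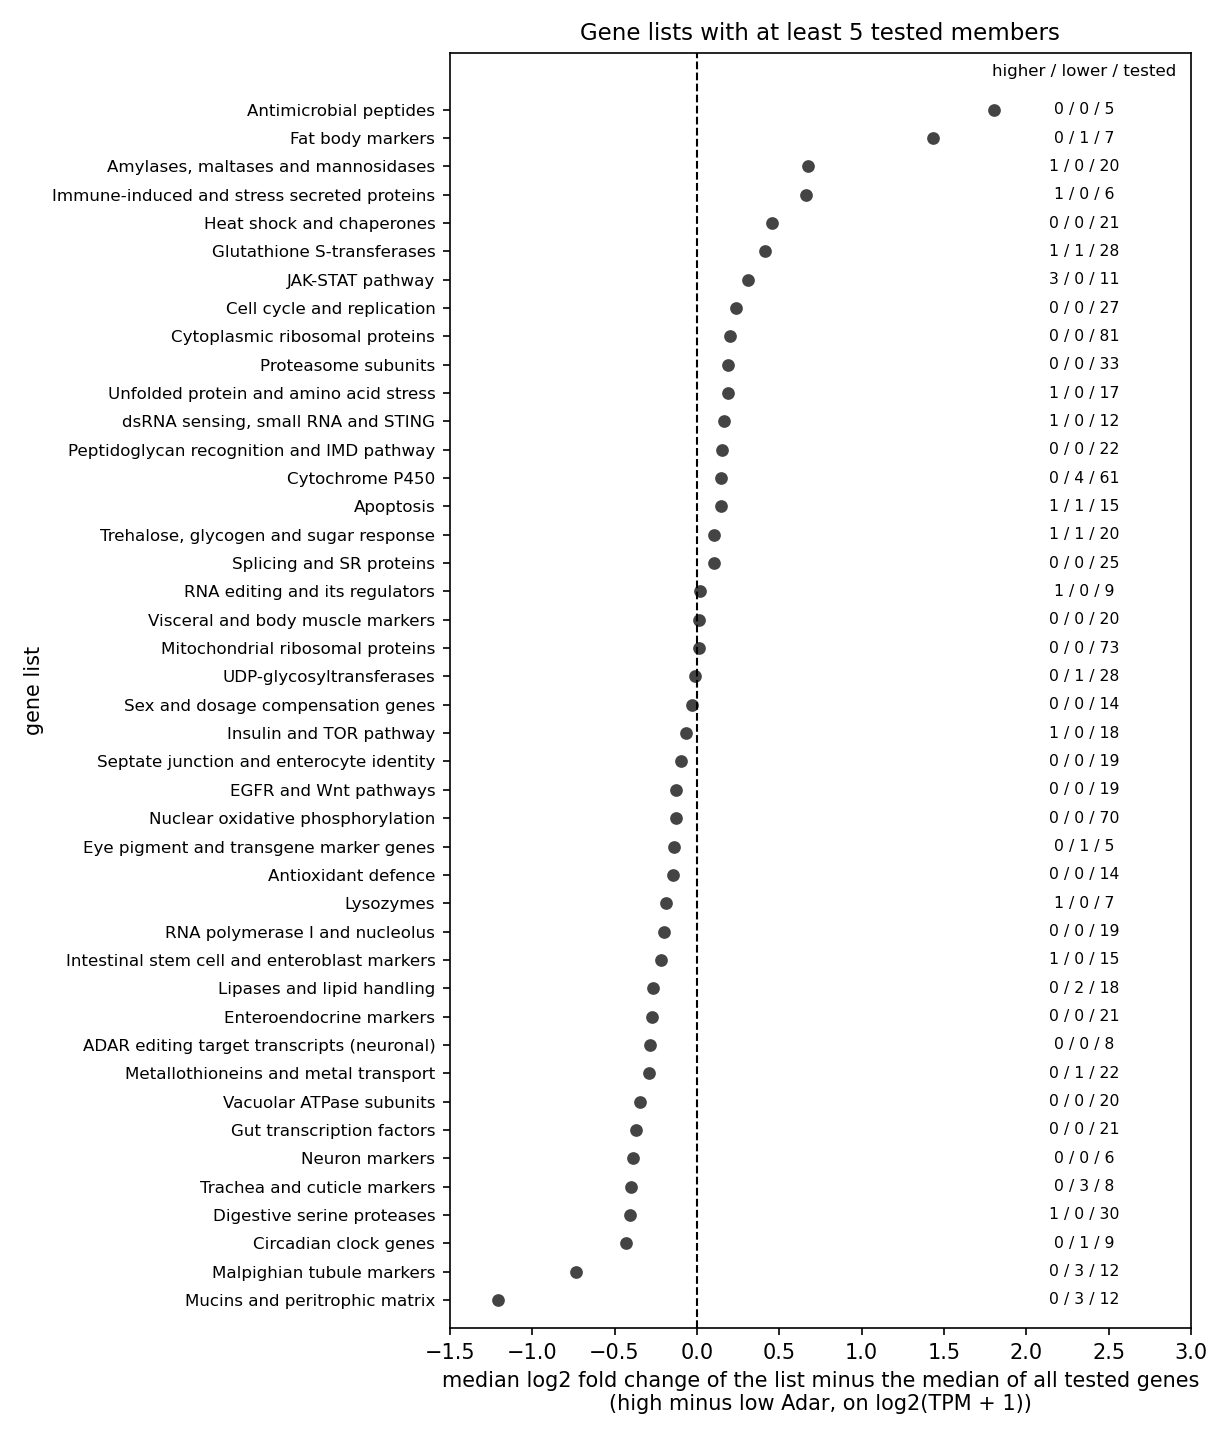
Median log2 fold change of 43 gene lists with at least 5 tested members, relative to the median of all tested genes, for high-Adar minus low-Adar libraries, with the numbers called higher, called lower and tested at the right. Mucins and peritrophic matrix proteins lie lowest at −1.21. The antimicrobial peptides lie highest with none of 5 tested genes called.

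The high-Adar libraries differed from each other in some genes by more than the groups did. Relative to the low-Adar mean, the median gene lay at −0.08 in WT1 and 0.37 in WT2. A total of 44 genes had a log2 fold change of at least 2 in size and no call. WT2 was far higher than WT1 for the yolk protein genes, which the fat body makes: Yp3 had 15.3 TPM in WT1 and 495 TPM in WT2, against 36.3, 54.2 and 38.2 TPM in the low-Adar libraries. Fat body markers summed to 224 and 2645 TPM in the high-Adar libraries, and to 490, 887 and 270.4 TPM in the low-Adar libraries. Cyp4g1, an oenocyte enzyme of hydrocarbon synthesis, had 2.08 TPM in WT1 and 50.02 TPM in WT2, against at most 0.0583 TPM in the low-Adar libraries. Whether carried-over fat body or oenocytes account for any gene called here was not tested.

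A last group of falls concerns copies of ribosomal RNA. The 119 rRNA rows summed to 94.7 and 56.0 TPM in the high-Adar libraries and 1954, 1371 and 1689 TPM in the low-Adar libraries, and 8 of the 9 tested rows fell. The kd Zn72D libraries summed to 262, 427 and 411 TPM. In the tables deposited for the kd Zn72D controls, which hold the same low-Adar libraries, the rows summed to 1472, 1335 and 1268 TPM, and 6 of the 9 fell. Of the rows that were not called with them, 18SrRNA-Psi:CR45861 had 750, 558 and 640 TPM in the low-Adar tables but 23.2, 512 and 11.1 TPM in those of the kd Zn72D controls. These rows are near-identical copies that share reads, so single rows are uncertain.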

How the data were processed

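RNA was measured by paired-end sequencing, and each library has 1 table of gene abundances deposited by the authors. Per the submitters' processing notes, STAR 2.7.1a and StringTie were used with build dm6. Annotation release and strand setting: not given in the sources used here. Per the file headers, the deposited tables give TPM (transcripts scaled to 1000000), FPKM (fragments scaled by gene length and depth) and coverage, a signal of mean read depth per base. The TPM column of the library titled WT3 sums to more than 1000000 and was recorded as a deposited signal. TPM gives no count from which the counting error could be modelled, and no read counts were used.

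The 17830 FlyBase gene rows were used, of which 17751 matched a current symbol. Genes with a mean of at least 1 TPM over the 5 libraries were tested with limma 3.58.1 (lmFit; eBayes with trend and robust, through statmod 1.5.0) in R 4.3.3 on log2(TPM + 1). Tests were two-sided, with Benjamini-Hochberg adjustment over all genes tested, a call at an adjusted p under 0.05 and no replicate block. Fold changes are differences on that scale, which understates low genes; their errors are standard errors. Aligned gigabases were estimated as coverage over FPKM. The fit was tested on simulated data. Python 3.11.15 with matplotlib 3.10.9, numpy 2.4.6 and pandas 2.3.3 made tables and figures.

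The members, gene lists and tests were chosen with earlier results of these data known. Named genes were Adar and Zn72D, the 12 largest and 12 smallest called fold changes with a mean of at least 5 TPM in the higher group and a gene name, the 6 most abundant called genes per direction, and for each list at most 3 called genes in each direction (with none called, its 2 most abundant). Unnamed CG genes and others outside this rule, among them prage, kay, puc, slo, ninaE, the Iroquois genes and genes given as uncalled members of a list, were chosen after their values were seen. Alternatives changed the pseudocount, the filter, the scaling, the libraries and the variance model.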

Additional observations from a re-analysis of the deposited data

How the results depend on the processing

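The counts of 102 genes higher and 228 lower in the high-Adar libraries depended on several choices. Without a filter on low values 64 genes were higher, and at a mean of at least 5 TPM 65 were higher and 137 lower. Quantile normalization gave 173 higher, and median-ratio scaling 393 lower. With the library titled WT3 added, 3 were higher and 25 lower, and the median of all genes was 0.36. Leaving out 1 library at a time gave 61 to 2319 higher, 151 to 629 lower and a median of −0.08 to 0.36; the lone high-Adar library is then assumed to vary like the low-Adar ones. For all other alternatives both counts stayed within 1.5 times. With a replicate block the counts were 140 and 249. Deviations from the group means correlated at −0.02 for the libraries numbered 1 and 0.25 for those numbered 2. With only 2 high-Adar libraries their deviations mirror each other, so this cannot settle whether the numbers pair the libraries. With the tables deposited for the kd Zn72D controls in place of the low-Adar ones, 318 of the 330 genes were called, and 291 with median-ratio scaling. Over named genes and alternatives, 1799 values kept direction and call, 186 lost a call, 38 gained one and 3 turned. Adding WT3 turned Ser6 to −1.07 and Cpr51A to 0.12, and leaving out WT2 turned Yp3 to −1.40, in a range of −1.40 to 3.52 over the fits without 1 library. The causes were not tested. Only 2 high-Adar libraries limit every comparison here, and 111 of the called genes lay below 10 TPM in all 5 libraries.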

Other observations

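Among tested genes, the share called higher in the high-Adar libraries was 1.53% on 2L, 0.79% on 2R, 1.15% on 3L, 0.991% on 3R and 1.77% on X. The share called lower was 3.2% on 2L, 2.09% on 2R, 2.65% on 3L, 2.97% on 3R and 2.54% on X. None of the 68 tested genes of chromosome 4 was called by limma, with 16 at an unadjusted p under 0.05. By gene type, 96 of the genes called higher and 215 of those called lower were protein coding, of 8107 tested. Of 256 tested non-coding RNA genes, 6 were higher and 3 lower.

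The p24 cargo receptor eca, of a family that loads vesicles of the early secretory pathway, had 283 and 247 TPM in the high-Adar libraries and 101, 89.7 and 99.0 TPM in the low-Adar libraries (log2 fold change 1.44 ± 0.18, adjusted p = 0.00186 by limma). In the kd Zn72D libraries it had 292, 248 and 242 TPM. The family member p24-2 had 136 and 193 TPM in the high-Adar libraries and 72.9, 67.5 and 62.4 TPM in the low-Adar libraries. The other 5 tested members were not called. On chromosome 3R the genes eca (9684469 to 9685476) and p24-2 (9687402 to 9692794) lie close together. The gene laza, for a lipid phosphate phosphatase, had 49.2 and 88.9 TPM in the high-Adar libraries and 14.9, 14.7 and 15.7 TPM in the low-Adar libraries. The serine protease gene CG1304 had 342 and 400.4 TPM in the high-Adar libraries and 62.6, 44.0 and 41.5 TPM in the low-Adar libraries (log2 fold change 2.90 ± 0.22, adjusted p = 0.000109 by limma). These genes were chosen after their values were seen.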
